A study of Mus musculus with 5 samples.

Results

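Early B lymphoid transcripts, the messages of the pre-B cell receptor and of the factors that set up the B lineage, were followed through haematopoietic stem cell (HSC) libraries from mouse bone marrow. The set holds 10 genes (Vpreb1, Vpreb3, Igll1, Cd79a, Cd79b, Ly6d, Blnk, Ebf1, Pax5 and Dntt) out of the 35976 gene rows of the count table, and all 10 had a row. They were chosen by their measured counts in these same libraries, as genes read in some libraries of each label only, so their levels are a description and carry no test. The libraries hold 30 sorted cells each, taken from C57BL/6 mice by surface phenotype (lineage markers and CD34 absent, Sca-1, c-kit and CD150 present) and amplified by Smart-seq2, which copies full-length cDNA and keeps neither strand nor molecule identifiers. By the sample labels 2 libraries are WT and 3 are Ythdf3-/-, a genotype without YTHDF3, a cytosolic protein that binds methylated adenosines of mRNA. The series text counts the groups the other way round but states that each library comes from a different mouse. The sources used here state neither age, sex nor the make-up of the Ythdf3 allele, and no treatment is named.

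B cells arise from HSCs through lymphoid progenitors in the bone marrow. The transcription factors EBF1 and then PAX5 switch on the B cell genes, while RAG recombinase and terminal transferase assemble the immunoglobulin heavy chain gene. A pro-B cell that succeeds pairs the heavy chain with a surrogate light chain, made of VPREB and lambda-like (IGLL1) proteins, and signals through CD79A and CD79B to the adaptor BLNK. HSCs as sorted here precede these steps, and none of the 10 proteins is named in the sort.

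Total counts ran from 6357862 to 16650134 per library, which makes 1 count equal to 0.0601 to 0.157 CPM (counts scaled to a fixed total per library, without further normalization). Ythdf3 itself did not follow the labels: the libraries labelled WT 1 and 2 had 20 and 29 counts and those labelled Ythdf3-/- 1, 2 and 3 had 2, 339 and 366. The library labelled Ythdf3-/- 1 was the lowest, as its label says, while those labelled Ythdf3-/- 2 and 3 lay above both labelled WT. The libraries are therefore named by their labels throughout, and any direction refers to the labels alone. Of 20 genes listed for HSCs and the sort, 14 had at least 10 counts in all 5 libraries, among them Meis1, a homeobox factor of stem cells, and their summed level lay between 2625 and 5316 CPM. Genes of the sort did not all follow it: Cd34, whose protein the sort excludes, had 3455 and 522 counts against 891, 20 and 1709, and Slamf1 (CD150), which it requires, had 482 and 1 against 328, 354 and 211. Cd48, a surface marker of progenitors past the HSC, had 12 and 0 against 131, 3 and 2, the 2 highest libraries being those of the members. These were chosen after their values were seen. With 30 cells a library, on-off reading was common: 41.5% of the 11146 genes tested had under 10 counts in at least 1 library and at least 100 in another, as had 6 of the 10 members. All members but Pax5, 9 of 10, passed the filter on low counts that defines the genes tested.

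Promoter sequences are shown because the members are regulated as a group during B cell development, in part by E proteins, which bind E boxes, and by EBF1. RefSeq promoter entries (GRCm38.p6, which is mm10) were found for 8 members, all but Cd79b and Ly6d, and the 250 bases before the start were searched on both strands. The E box CAGGTG was present in 4 of the 8, against 17.2% of 32851 promoter windows of the same length, and the E box CAGCTG in 1 of the 8 against 13.0%; these motifs did not overlap in the members. Members were counted by gene and the shares by window, and the 32851 windows belong to 27025 genes, so the units differ. The EBF palindrome was matched in 0 of the 8 and in 0.779% of windows, which says only that its letters are not in these windows. The 30 bases around each CAGGTG match are given on the strand of the gene, with the match in capitals; it reads CACCTG where it lies on the opposite strand. They come from chr16:16869326-16869355 (minus), chr16:16863986-16864015 (minus), chr7:24897331-24897360 (plus) and chr19:40994364-40994393 (minus) in that order.
Vpreb1: atgacgttccagCAGGTGcttcctcccaga
Igll1: ctggggtttggctacacagatcCACCTGca
Cd79a: ttgtggccagccCAGGTGcagggcagttcc
Blnk: aacctggcaacaCACCTGatcataaaagag
The matches began 88, 8, 154 and 160 bases before the RefSeq start. Those of Vpreb1 and Blnk lie in exons of the same genes by GENCODE M21, whose models start earlier, so they may be transcribed; those of Igll1 and Cd79a lie in no GENCODE exon. The Igll1 promoter held both kinds of E box and is shown whole (chr16:16863986-16864235, minus strand, matches in capitals).
Igll1 promoter: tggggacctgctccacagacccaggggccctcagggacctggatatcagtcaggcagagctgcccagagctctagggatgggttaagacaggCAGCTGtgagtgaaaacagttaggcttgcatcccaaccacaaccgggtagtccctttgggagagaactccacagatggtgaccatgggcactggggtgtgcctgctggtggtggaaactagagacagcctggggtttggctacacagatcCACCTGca
A match describes the letters and does not show a bound site.

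The surrogate light chain genes were read in abundance in the library labelled Ythdf3-/- 1, at a middle level in that labelled WT 1 and at trace level in the other 3. Vpreb1 (chromosome 16, 16868401 to 16869255, minus strand) encodes the variable-like part of that chain. In the libraries labelled WT 1 and 2 its counts were 292 and 31, and in those labelled Ythdf3-/- 1, 2 and 3 they were 3252, 43 and 21. These are 17.5 and 3.46 CPM against 511, 4.74 and 2.99 CPM. Within the Ythdf3-/- label the first library was 108-fold above the second (95% exact interval 80.0 to 149), and within the WT label the first was 5.07-fold above the second (3.50 to 7.60). Such intervals take every read as independent, which amplified reads are not. They are therefore too narrow even for counting error, and they leave out the spread between mice. Fewer cells of a type and less RNA per cell cannot be told apart in libraries of pooled cells.

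Igll1 (chromosome 16, 16860671 to 16863985, minus strand), 4415 bases from Vpreb1, encodes the constant-like part of the surrogate chain. It had 636 and 32 counts within the WT label and 1493, 26 and 29 within the Ythdf3-/- label. Vpreb3 (chromosome 10, 75943024 to 75949657, plus strand), whose product binds immunoglobulin chains early in their assembly, had 708 and 18 counts against 1932, 16 and 8. All of them shared the order of the high libraries, with Ythdf3-/- 1 first and WT 1 second, but the step between those libraries was uneven. It was 29.2-fold for Vpreb1 (25.9 to 33.0), 7.15-fold for Vpreb3 (6.55 to 7.80) and 6.15-fold for Igll1 (5.60 to 6.76). Vpreb2, a close copy of Vpreb1, followed the same order with 45 and 2 counts against 288, 6 and 4. The transcripts of Vpreb1 and Vpreb2 are 97.4% identical over 759 aligned bases, so reads of the copies can be exchanged. The exons of Vpreb1 also share 108 bases with Top3b on the opposite strand, and Top3b had 4330 and 727 counts against 572, 500 and 231.

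The signalling parts of the receptor did not behave alike. Cd79a (chromosome 7, 24897497 to 24901858, plus strand), which encodes the Ig-alpha chain, had 3796 and 26 counts within the WT label and 1678, 29 and 17 within the Ythdf3-/- label. Unlike the surrogate chain genes it stood at nearly the same level in both high libraries, 228 and 264 CPM, a ratio of 1.16 (1.09 to 1.23). Its partner Cd79b (chromosome 11, 106311341 to 106314562, minus strand), the Ig-beta chain, was read in every library, with 2695 and 401 counts against 1252, 1873 and 600. Its highest level was 206 CPM in the library labelled Ythdf3-/- 2, where Cd79a stood at 3.19 CPM, and its lowest was 44.7 CPM in that labelled WT 2. Cd79b therefore does not meet the wording by which the set was picked, and at 10 counts or more Vpreb1, Igll1 and Cd79a were read in all 5 libraries as well. Blnk (chromosome 19, 40928927 to 40994221, minus strand), the adaptor that links the receptor to downstream kinases, had 875 and 8 counts against 1133, 5 and 254. Unlike the surrogate chain genes it was also read in 1 more library at over 100 counts: that labelled Ythdf3-/- 3 stood at 36.2 CPM, 20.3% of the highest.

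Of the lineage-setting factors, Ebf1 was read in both high libraries and Pax5 in 1 of them. Ebf1 (chromosome 11, 44618100 to 45008096, plus strand), the early B cell factor, had 613 and 4 counts within the WT label and 107, 3 and 3 within the Ythdf3-/- label. It was the only one of the 10 members with its highest level in the library labelled WT 1, 2.19-fold (1.78 to 2.71) above that labelled Ythdf3-/- 1. Pax5 (chromosome 4, 44524748 to 44710694, minus strand), which holds cells in the B lineage, had 5 and 0 counts against 212, 3 and 1. The library labelled WT 1, with 228 CPM of Cd79a, thus had 0.300 CPM of Pax5, and 0 counts in that labelled WT 2 allow up to 0.335 CPM. Between the high libraries the step was 111-fold (46.8 to 345). The exons of Pax5 share 761 bases with genes annotated on the opposite strand; of these, 5730488B01Rik had 1 and 1 counts against 112, 2 and 0, so reads of the shared bases cannot be assigned without strand.

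Dntt and Ly6d mark lymphoid progenitors and were read with the surrogate chain genes. Dntt (chromosome 19, 41029275 to 41059525, plus strand), 35053 bases from Blnk, encodes terminal transferase, which adds bases at heavy chain joints. It had 327 and 8 counts within the WT label and 696, 10 and 3 within the Ythdf3-/- label. Ly6d (chromosome 15, 74762056 to 74763567, minus strand), a surface marker of progenitors that have taken the B path, had 1006 and 0 counts against 1068, 4 and 1. Among the 10 its step within the WT label was the largest as calculated. The library labelled WT 1 was at least 181-fold higher than that labelled WT 2, taking 0 counts as a floor of 3 per library. This bound carries no interval, and the step of Ebf1, 82.5-fold (32.1 to 304), has one that reaches past it, so the rank is uncertain.

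**Figure D1:**
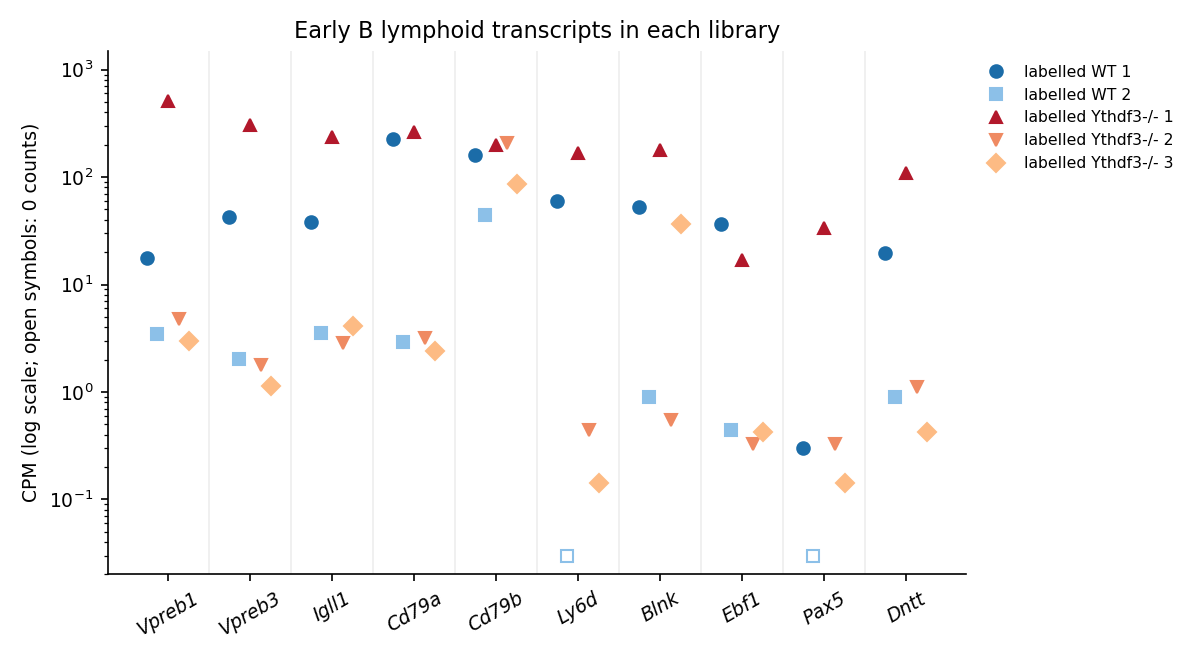
CPM of the 10 members (log axis) in each of the 5 libraries, 1 symbol per library; open symbols on the lowest line are 0 counts. The libraries labelled WT 1 and Ythdf3-/- 1 hold the 2 highest symbols for 8 members, while Cd79b is between 44.7 and 206 CPM in all 5.

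Counted over the set, 8 of 10 members were highest in the library labelled Ythdf3-/- 1, as were 19.7% of the genes tested, and 1 was highest in that labelled WT 1, as were 19.8%. For 8 members these libraries held the 2 highest levels, against 9.92% of genes tested. At least 100 counts in both and under 50 in each of the other 3 were found for 7 members and for 0.969% of genes tested. Because the members were picked for their counts in these libraries, nothing is read from those shares. At 10 counts or more, 9 and 5 members were read in the libraries labelled WT 1 and 2, and 10, 6 and 5 in those labelled Ythdf3-/- 1, 2 and 3. With every library thinned to 6357862 counts they were 9 and 5, and 10, 4 and 5.

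The labels overlapped for all 10 members, so 0 of 10 separated WT from Ythdf3-/- libraries, against 20.7% of genes tested. The rule that picked the members, read in some libraries of each label only, favours such overlap. Nothing is therefore read from this share. Summed over the members, the level was 358 ± 424 CPM for the label WT (SD, n = 2) and 791 ± 1063 CPM for the label Ythdf3-/- (SD, n = 3). The library values behind these means were 658 and 58.9 CPM against 2017, 222 and 134 CPM. The difference of 432 CPM became -181 CPM without the library labelled Ythdf3-/- 1. In the same order Vpreb1 averaged 10.5 ± 9.96 CPM and 173 ± 293 CPM, and Cd79a averaged 115 ± 159 CPM and 89.8 ± 151 CPM. In each case the SD was close to the mean or above it. The mean was higher within the Ythdf3-/- label for 8 members and lower for Cd79a and Ebf1. For 6 of the 8, all but Cd79b and Pax5, the difference turned negative without the library labelled Ythdf3-/- 1. Without that library the difference of Pax5 fell from 11.1 to 0.0864 CPM, and that of Cd79b from 59.6 to 42.6 CPM. That of Ly6d also turned to -4.23 CPM without the library labelled WT 2. That of Cd79a, -25.6 CPM, became 86.9 CPM without the library labelled WT 1, 17.7 CPM without that labelled Ythdf3-/- 2 and 18.1 CPM without that labelled Ythdf3-/- 3. That of Ebf1 went from -12.8 to 5.42 CPM without the library labelled WT 1 and to -31.0 CPM without that labelled WT 2.

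The libraries labelled WT 1 and Ythdf3-/- 1 held different mixtures of the same transcripts. In the library labelled Ythdf3-/- 1, Vpreb1 made up 25.4% of the members' 12823 counts (95% Wilson interval 24.6 to 26.1), and in that labelled WT 1 it made up 2.67% of 10953 (2.38 to 2.98). Cd79a had 34.7% (33.8 to 35.6) in the library labelled WT 1 and 13.1% (12.5 to 13.7) in that labelled Ythdf3-/- 1. Ebf1 took 5.60% and 0.834%, and Pax5 0.0456% and 1.65%, in the same order of libraries. In the other 3 libraries Cd79b alone made up between 64.0% and 93.1% of the members' counts. Without Cd79b, left out after its values were seen, the remaining 9 summed to 14.2, 15.3 and 48.0 CPM in the libraries labelled WT 2, Ythdf3-/- 2 and Ythdf3-/- 3, and to 496 and 1820 CPM in those labelled WT 1 and Ythdf3-/- 1.

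**Figure D2:**
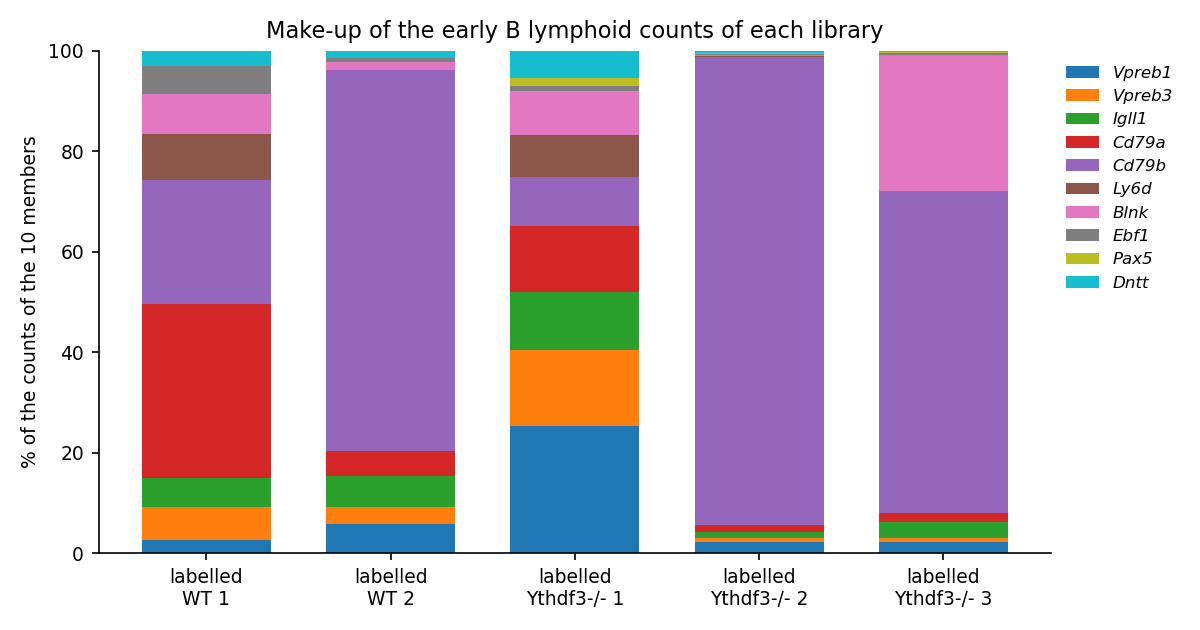
Share of each member in the counts of the 10 members (%), 1 bar per library, colours for genes. Cd79b fills 75.9%, 93.1% and 64.0% of the bars labelled WT 2, Ythdf3-/- 2 and Ythdf3-/- 3, while Vpreb1 is 25.4% of that labelled Ythdf3-/- 1 and Cd79a 34.7% of that labelled WT 1.

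Per kilobase of exon (GENCODE M21 union of exons), the members can be ranked within a library. In the library labelled Ythdf3-/- 1 the highest were Vpreb1 with 427 and Vpreb3 with 354 CPM per kilobase, levels above 99.1% and 98.9% of the genes read there. Ly6d followed with 226, Cd79a with 181, Cd79b with 138 and Igll1 with 109 CPM per kilobase. The transcription factor genes came last, Pax5 with 3.77 and Ebf1 with 1.73 CPM per kilobase. In the library labelled WT 1 the order was led by Cd79a with 156 and Cd79b with 113 CPM per kilobase, above 97.0% and 95.3% of the genes read. There Ly6d stood at 81.2, Vpreb3 at 49.5, Vpreb1 at 14.6 and Pax5 at 0.0339 CPM per kilobase. Each rank rests on 1 library and has no replicate error. The ranks also depend on the length used: for Igll1 the union of exons is 2164 bases, while its longest protein-coding transcript has 870.

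Outside the high libraries most members kept a trace, of like size for some of them. For Vpreb1 they were 0.676%, 0.926% and 0.585% of the highest library's CPM in the libraries labelled WT 2, Ythdf3-/- 2 and Ythdf3-/- 3. For Igll1 they were 1.52%, 1.22% and 1.76%, and for Cd79a 1.10%, 1.21% and 0.918%. Ly6d, with 1068 counts in its highest library, stood lower at 0%, 0.262% and 0.0848%.

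The other genes of the B lineage were listed by role. Of 94 genes in 6 lists, 82 were rows of the table and 58 passed the filter on low counts. Between the labels 0 of the 58 passed the edgeR quasi-likelihood test at an adjusted p of 0.05, as did 0% of all 11146 genes tested. DESeq2 called 0 of them, against 2.39% of genes tested, and limma voom called 0 as well, with 3 of them at an unadjusted p under 0.05. At an unadjusted p under 0.05 edgeR had 3 of 58, against 4.85% of all genes. Cd24a and Il2rg were among them, each with an edgeR adjusted p = 0.964. Among the 58, 31 were fitted higher and 27 lower within the Ythdf3-/- label, with a median log2 fold change of 0.12 against -0.06 over all genes tested. The groups did not overlap for 7 of 58, beside the 20.7% of all genes. By role, 7 transcription factor genes were fitted higher and 8 lower (median log2 fold change -0.14), 4 and 5 of the surface receptor genes (-0.0019), 4 and 9 of the signalling genes (-0.23), and 5 and 3 of the recombination and end-joining genes (0.87). Of the remaining B lineage transcripts, 10 were fitted higher and 3 lower (0.55), and none of these lists held a gene that passed edgeR or DESeq2.

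Among these genes the recombinase genes went with the surrogate chain. Rag1 had 12 and 0 counts within the WT label and 167, 3 and 0 within the Ythdf3-/- label, and Rag2 had 78 and 1 against 518, 2 and 1. The cytokine receptor genes of lymphoid progenitors were apart from the members: Il7r had 16 and 83 counts against 1, 3 and 0, and Flt3 had 585 and 147 against 2, 2 and 403. Vpreb2 and Jchain, which encodes the joining chain of antibodies, were the rows of the immunoglobulin list that matched, 2 of 13, and the constant region genes are not analysed here. Jchain had 300 and 0 counts against 0, 1 and 0. Rag1, Il7r and Jchain did not pass the filter on low counts and were not tested.

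**Figure D3:**
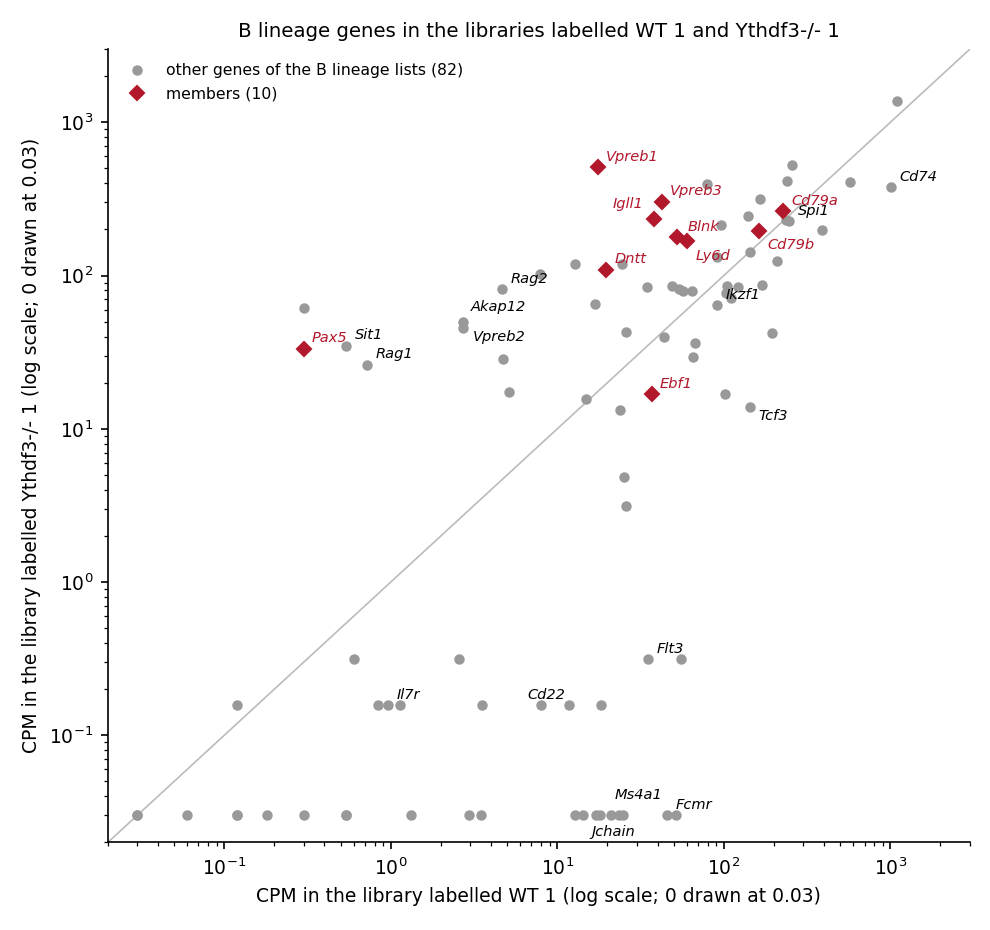
CPM in the library labelled WT 1 (horizontal, log axis) against that labelled Ythdf3-/- 1 (vertical, log axis) for the 10 members and 82 other B lineage genes, with the line of equal levels; 0 is drawn at 0.03. Vpreb1, Pax5, Rag1 and Rag2 lie above the line, Flt3 and Fcmr far below it, and Cd79a and Cd79b near it.

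Of the 82, 14 had at least 100 counts in the library labelled WT 1 and at most 3 in that labelled Ythdf3-/- 1, a share of 17.1% against 10.5% of the genes tested. The reverse was found for 0 of 82 and for 2.04% of the genes tested. The 82 include genes that failed the filter on low counts, while the genes tested do not. Of the 14, Pou2af1, Cd22, Ms4a1, Fcrla, Jchain, Fcmr and Tmem163 failed it. The shares are therefore not like for like, and nothing is read from their difference. Among the 14 are genes known from mature B cells, such as Ms4a1 (CD20) with 389 counts, Fcmr (the IgM Fc receptor) with 759, Cd22 with 195 and Pou2af1 (a B cell co-activator) with 133 in the library labelled WT 1. These 4 had 0, 0, 1 and 1 counts in the library labelled Ythdf3-/- 1 and were chosen after their values were seen. Other genes of the surface receptor list did not share this pattern. Fcer2a had 5 and 392 counts within the WT label and 391, 318 and 254 within the Ythdf3-/- label. Cr2 had 0 and 2 against 0, 0 and 0, and Cd180 had 2 and 0 against 0, 0 and 0. Cd74, the invariant chain of MHC class II, was highest in the library labelled WT 1 at 1013 CPM, with 38.5 CPM in that labelled WT 2 and 380, 418 and 468 CPM within the Ythdf3-/- label. On the other side, also chosen after their values were seen, Akap12 and Sit1 had 319 and 222 counts in the library labelled Ythdf3-/- 1 against 45 and 9 in that labelled WT 1.

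Some genes of the same pathway that stem cells use as well were read in all libraries. The transcription factor genes Spi1 (PU.1) and Myb averaged 155 ± 130 and 141 ± 1.88 CPM within the WT label (SD, n = 2) and 285 ± 162 and 212 ± 65.4 CPM within the Ythdf3-/- label (SD, n = 3). Ikzf1 (Ikaros) averaged 119 ± 40.1 and 86.4 ± 41.3 CPM. Tcf3, which encodes some of the E proteins that bind E boxes, had 143 and 145 CPM within the WT label but 13.8, 54.9 and 161 CPM within the Ythdf3-/- label, lowest where Vpreb1 was highest. The other E protein genes listed, Tcf12 and Tcf4, were not lowest there. Tcf12 had 53.6 and 92.2 CPM against 82.1, 15.2 and 66.1 CPM, and Tcf4 had 117 and 9.48 CPM against 70.0, 52.0 and 154 CPM. Il2rg, the common cytokine receptor chain, averaged 209 ± 69.2 and 549 ± 99.6 CPM, and Cd24a 295 ± 122 and 139 ± 13.1 CPM. The signalling genes Dapp1 (428 ± 208 and 433 ± 90.7 CPM) and Ptpn6 (184 ± 75.1 and 395 ± 262 CPM) were present throughout. So were Hmgb1 (1079 ± 29.1 and 1117 ± 255 CPM) and Xrcc6 (95.9 ± 1.16 and 158 ± 72.2 CPM) of the recombination and end-joining list. Of the 12 genes of that list only these 2 had at least 10 counts in all 5 libraries. Smarca4, a chromatin remodeller, stood at 172 ± 97.1 and 331 ± 70.6 CPM. None of these genes passed edgeR (adjusted p = 0.964 for Il2rg and Cd24a and 0.9998 for the others).

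Markers of other cell types were read beside the members, as summed CPM of whole lists. For T and NK cells, 11 of 19 markers were at 0 in every library, among them Cd3d, Cd3g, Cd4 and Cd8a; the list summed to 101 to 215 CPM within the WT label and 64.3 to 226 CPM within the Ythdf3-/- label, led by Gata3 and Cd247. Plasmacytoid dendritic cells can carry early B transcripts too. Of their 17 markers the defining Siglech, Klk1 and Cox6a2 were at 0 in every library, and the list, led by Ly6a and Bst2, which HSCs also express, summed to 505 to 968 and 867 to 1046 CPM. Other genes of this list, chosen after their values were seen, had the 2 highest libraries of the members: Rnase6 had 2825 and 9 counts against 420, 7 and 173, and Smim5 had 1963 and 13 against 1358, 362 and 354. The plasma cell list, led by Xbp1 and Fkbp11, summed to 184 to 521 and 352 to 734 CPM, with Derl3 and Tnfrsf17 at 0. Within it Mzb1, a chaperone of antibody assembly also chosen after its values were seen, followed the members with 703 and 5 counts against 404, 6 and 1. Granulocyte genes, led by Prtn3 and Csf3r, summed to 477 to 618 and 356 to 832 CPM, with 3 of 15 at 0. Monocyte and macrophage genes, led by Lyz2 and Cd68, summed to 464 to 505 and 736 to 1134 CPM, with 4 of 16 at 0. The libraries labelled WT 1 and Ythdf3-/- 1 held the 2 highest levels for 2 of the 8 T and NK cell genes with a count, 3 of 14 plasmacytoid dendritic cell genes, 1 of 7 plasma cell genes, 1 of 12 granulocyte genes, 0 of 12 monocyte and macrophage genes and 1 of 20 HSC genes, beside the 9.92% of genes tested. These lists include genes that failed the filter on low counts, such as the granulocyte gene, Ngp, with 3 and 1 counts against 9, 0 and 0. The shares are therefore not like for like.

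The erythroid list was highest in 1 of the libraries with abundant members. It summed to 37849 CPM in the library labelled Ythdf3-/- 1 and to between 1974 and 3355 CPM in the other 4, led by Hba-a1 and Car2. Adult globin transcripts took 3.55% of all counts there and 0.00311% to 0.0423% elsewhere. Of the 14 erythroid genes 6 were highest in that library and 7 in that labelled WT 2, where the members were low. The latter include Gata1, the erythroid transcription factor, with 6 and 1061 counts against 1, 2 and 1, and Klf1, another, with 5 and 1514 against 9, 9 and 343, both chosen after their values were seen. For 0 of the 14 did the libraries labelled WT 1 and Ythdf3-/- 1 hold the 2 highest levels. In the library labelled WT 1, the other one with abundant early B transcripts, the erythroid list summed to 2632 CPM. The part of these other transcripts in the levels of the members was not tested.

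**Figure D4:**
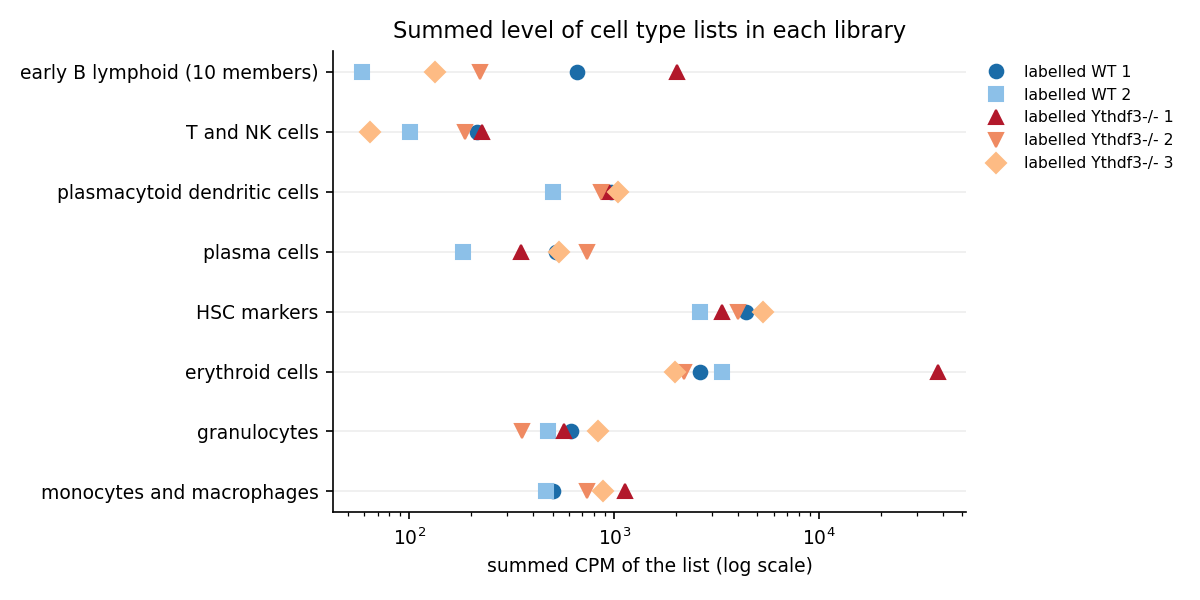
Summed CPM (log axis) of the 10 members and of 7 cell type lists, 1 symbol per library. The members range from 58.9 to 2017 CPM, HSC markers from 2625 to 5316 CPM, and the erythroid list reaches 37849 CPM in the library labelled Ythdf3-/- 1.

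The genes whose pattern was most like that of the members were sought among 8636 named genes with a mean of at least 10 CPM. Likeness was Pearson's correlation over the 5 libraries between log2(CPM + 1) of a gene and the mean of the members. The closest were Zfp33b, Trmt44, AA986860, Zcchc8, Ahrr, Mbnl1, Pkmyt1 and Jmjd4, with r between 0.988 and 0.999, and none of them is in the B lineage lists. Zfp33b, a zinc finger gene, had 167 and 0 counts against 299, 0 and 2, and Pkmyt1, a kinase that restrains mitotic entry, had 471 and 0 against 475, 4 and 1. Mbnl1, a splicing factor, differed far less, with 295 and 174 CPM against 430, 165 and 190 CPM. These correlations rest on 5 points that share library and depth, and carry no test.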

How the data were processed

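The authors deposited raw read counts per gene symbol, unnormalized, for 5 libraries; the submitters' processing notes name HISAT2 2.2.1, HTSeq 0.12.4 and mm10, and the sources used here do not state the annotation, strand setting or treatment of multiply matching reads. The main test, in R 4.3.3, was edgeR 4.0.16 quasi-likelihood on the counts as deposited (TMM, default filter by label, robust, no covariate, Benjamini-Hochberg at 0.05); DESeq2 1.42.0 and limma 3.58.1 were run beside it, and edgeR was tested on simulated data: it recovered most changed genes at a low spread between replicates but not at the spread of these libraries, so a count of 0 does not show that genes did not differ. Libraries are from different mice, so replicates are animals. Members and lists were chosen with earlier results of these data known. Named genes were the members, Ythdf3, the 2 genes of highest mean CPM in each list, Ighm, Igkc, Rag1, Rag2, Il7r, Flt3, Tcf3, Ikzf1, Spi1, and the 8 genes most like the members; some genes that this rule names are not reported here. Gene spans and promoters are from RefSeq (GRCm38.p6, 1-based); exon lengths are from GENCODE M21, in which 26705 of 35976 symbols matched 1 gene. Ratios of 2 libraries carry exact binomial and shares Wilson 95% intervals, which take reads as independent and are too narrow for amplified reads. Alternatives were other scalings, filters and tests, thinning, a replicate block and leaving out each library.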

Additional observations from a re-analysis of the deposited data

How the results depend on the processing

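The count of genes passing edgeR, 0, became 21 with no filter on low counts and 250 with DESeq2, and ranged from 0 to 1 when each library was left out in turn, with 1 without the library labelled WT 1. It was 1 without both libraries numbered 1, an alternative added once the data had been seen; a lone library labelled WT is then assumed to vary like the others. Unadjusted, 541 genes had p under 0.05. For the other B lineage genes the count was 0 in every fit run, with 1 to 7 at an unadjusted p under 0.05. With the title number as a replicate block both counts were 0. The numbers state no shared origin, and over the genes tested deviations of the same-numbered libraries from their label means correlated at -0.009 and 0.004. With 2 libraries labelled WT their deviations mirror each other, so these values cannot show what same-numbered libraries share. A shared origin that affects some genes was not tested. Members read in the libraries labelled WT 2, Ythdf3-/- 2 and Ythdf3-/- 3, at 5, 6 and 5 with 10 counts, were 8, 10 and 8 with 3 counts, 8, 10 and 10 with 1 count, and 3, 2 and 2 with 30 counts. The summed difference of 432 CPM was 408 CPM with TMM scaling and ranged from -181 to 761 CPM with a library left out, and that without Cd79b ranged from -223 to 679 CPM. Of the 8 genes most like the members, 0 stayed with Spearman's correlation, where 68 genes tied, and 4 with a pseudocount of 0.1 CPM. The 5 libraries and amplified reads from 30 cells limit what can be seen.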
